A study of Xenopus tropicalis with 11 samples.

Results

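Smad2/3 and Foxh1 binding of the early gastrula were set against each other in embryos of the frog Xenopus tropicalis, from 1 peak list for each factor. The Smad2/3 list held 480 peaks and the Foxh1 list 1290, of 139160 peaks in the 6 lists of the series. A Smad2/3 and a Foxh1 peak were taken as a pair when they overlapped by 1 base or more, which gave 260 pairs. The pairs left 220 Smad2/3 peaks without Foxh1 and 1030 Foxh1 peaks without Smad2/3.

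Smad2/3 are the proteins that carry a Nodal or activin signal from the receptor to the nucleus, where they bind DNA weakly on their own and are placed by partner factors. Foxh1 is a forkhead factor and the classic partner of Smad2/3 at genes of mesoderm and endoderm. It is deposited in the egg and can sit on DNA before the signal arrives. Tle is a co-repressor that other factors bring to DNA, and Foxa factors are forkhead proteins of the endoderm and the organizer.

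The series mapped protein binding on chromatin by ChIP-seq, in whole embryos of the Nigerian strain, with a custom antibody for Foxh1 and commercial ones for Tle and Foxa. Both gastrula lists are the submitters' reanalysis of samples from an earlier series. They are tied to no sample here, so their stage is known from the list names alone, which place both a little after stage 10.25, and the sources used here do not give their strain, antibodies, replicates or read numbers. They were set beside the lists of Foxh1 at stages 8 and 9 (blastula, 2 replicates pooled each), Tle at stage 8 (1 library) and Foxa at stage 10.25 (1 library). The labels name no mutant and no drug for any of them. With 1 list per factor, no spread between embryos can be given and no test was made. The depth is unknown, and Wilson 95% intervals in brackets cover only the counting error of peaks, which are not independent where they lie close together.

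The lists differ in where they end. Fold enrichment, the authors' value for a peak over its local background, was 2.62 to 35.4 in the Smad2/3 list (median 9.28) and 7.70 to 47.0 in the Foxh1 list (median 10.6). The lowest deposited −log10 p was 20.9 for Smad2/3 and 16.0 for Foxh1. The Smad2/3 list held 7.68% of the highest number in its peak names and the Foxh1 list 4.61%, and peaks below these ends were not analysed here. A Smad2/3 peak without a Foxh1 peak is therefore not shown to lack Foxh1. Nor is a Foxh1 peak without a Smad2/3 peak shown to lack Smad2/3. The shares of paired peaks, also by rank, depend on where both lists end. Of the peaks, 89.4% of Smad2/3 and 90.7% of Foxh1 lay on the 10 longest scaffolds. Scaffold 480 stood apart, with 3 Smad2/3 and 11 Foxh1 peaks and no peak of the 4 other lists. Several shares that include it are given with and without it.

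The pairs took up 54.2% of the Smad2/3 list (49.7 to 58.6%) and 20.2% of the Foxh1 list (18.1 to 22.4%). No peak of either list belonged to more than 1 pair. Although 1 shared base was enough, the shortest overlap was 121 bases and the median 287. The overlap covered a median of 92.2% of the Smad2/3 peak and 93.5% of the Foxh1 peak. The Foxh1 summit, the base of highest signal, lay inside the Smad2/3 peak in all 260 pairs, and the Smad2/3 summit inside the Foxh1 peak in 259. The paired peaks thus lay on top of each other and did not merely touch at their edges.

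By scaffold, the share of Smad2/3 peaks with Foxh1 was lowest on scaffold 7, with 21 of 46 peaks (45.7%), and highest on scaffold 5, with 34 of 48 (70.8%). The share of Foxh1 peaks with Smad2/3 ran from 16.7% on scaffold 7 to 27.6% on scaffold 5. Both shares were thus lowest and highest on the same scaffolds among the 10 longest. They count the same pairs on each scaffold, so they are not separate observations.

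The summits of a pair lay close together. The median distance was 23 bases (quartiles 10 and 47), and 5 pairs had both summits on the same base. Summits were within 10 bases in 70 pairs (26.9%), within 25 in 136 (52.3%), within 50 in 207 (79.6%) and within 100 in 245 (94.2%). Beyond 200 bases lay 3 pairs. The furthest, on scaffold 1, had its Smad2/3 peak at 55050921 to 55051536 and its Foxh1 peak at 55050936 to 55051487, with summits 281 bases apart in peaks of 616 and 552 bases.

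The same factor seen at another stage gives a scale for these distances. Gastrula Foxh1 summits lay a median of 14 bases from an overlapping stage 9 Foxh1 summit at the pairs (n = 246, 95% interval of the median 12 to 17), and 13 bases at Foxh1 peaks without Smad2/3 (n = 967). Smad2/3 summits lay 25 bases from stage 9 Foxh1 at the pairs (n = 246), close to their 23 bases from gastrula Foxh1 (interval of the median 21 to 29). At the 246 pairs with both, the gastrula Foxh1 summit was the nearer of both to the Smad2/3 summit in 134, the stage 9 summit in 104, and 8 were equal. Smad2/3 summits were thus further from Foxh1 summits than Foxh1 summits of neighbouring stages were from each other.

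Where a Smad2/3 peak had no gastrula Foxh1 peak, an overlapping stage 9 Foxh1 summit lay further off. The median distance to stage 9 Foxh1 was 25 bases at the pairs (interval 22 to 31), against 40 bases at the 108 Smad2/3 peaks without gastrula Foxh1 that had a stage 9 peak (interval 31 to 52). Within 50 bases lay 72.4% of these summits at the pairs and 58.3% at the others. The stage 9 peaks also differed in median fold, with 30.2 at the pairs and 16.7 at the others. The median distance to stage 8 Foxh1 was 28 bases at the pairs (n = 196, interval 24 to 33) and 71 bases without gastrula Foxh1 (n = 27, interval 27 to 158). These stage 8 intervals overlap. Distances to the middle of an overlapping Foxa peak, whose list gives no summit, did not follow this order. Their medians were 48 bases at the pairs (n = 251, interval 39 to 56) and 35 bases at Smad2/3 peaks without Foxh1 (n = 214, interval 28 to 44). These Foxa intervals overlap too.

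**Figure D1:**
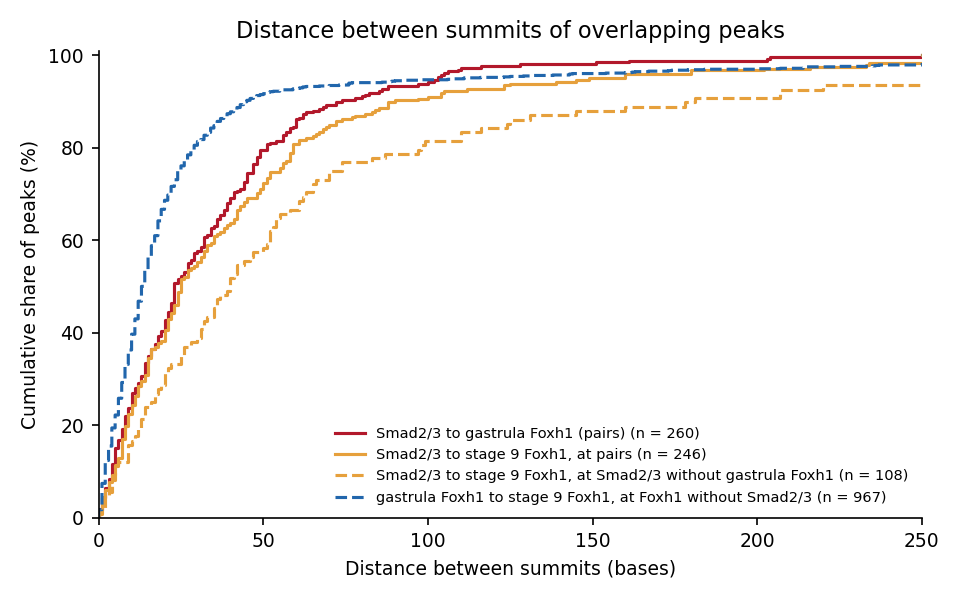
Cumulative share of peaks (%) against the distance between summits of overlapping peaks, in bases up to 250; each line is 1 set of peaks. The line of the 260 Smad2/3 and gastrula Foxh1 pairs passes 50% at 23 bases, right of the Foxh1 line at 13 bases and left of the line of Smad2/3 peaks without gastrula Foxh1 at 40 bases.

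Summit distance was short at the strongest Foxh1 peaks and showed no even trend below them. In the 82 pairs of the highest of 10 Foxh1 classes by fold, the median distance was 19 bases, against 23 in the second (n = 49) and 41 in the third class (n = 34). The medians of the 7 lower classes ran from 17 to 45 bases, with 7 to 24 pairs in each. Across the 260 pairs Spearman's rho of distance was −0.22 with Foxh1 fold and −0.03 with Smad2/3 fold. Distance was also larger in wider peaks, with rho of 0.26 for the Smad2/3 width and 0.25 for the Foxh1 width. All pairs come from the same 2 lists, so these values are a description.

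Fold enrichment of both factors went together only loosely in the pairs. Spearman's rho was 0.34 and Pearson's r of the log2 folds 0.36 (n = 260 pairs that share their libraries), and Foxh1 had the higher fold in all but 35 pairs. Only sites that reached both lists enter rho and r, so they do not describe the relation over all peaks of either list. Folds of different lists are not on 1 scale, so pairs were compared by rank. Of the 87 pairs in the upper tertile by Smad2/3 fold, 44 (50.6%) were in the upper tertile by Foxh1 fold and 19 (21.8%) in the lower. Of the 87 in the lower tertile by Smad2/3 fold, 14 (16.1%) were in the upper and 41 (47.1%) in the lower tertile by Foxh1 fold. Pairs of the highest Foxh1 class had a median Smad2/3 fold of 11.4, and those of the third class 8.70. The 7 pairs of the lowest Foxh1 class had a median Smad2/3 fold of 11.6, so that the relation did not continue to the end of the list.

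**Figure D2:**
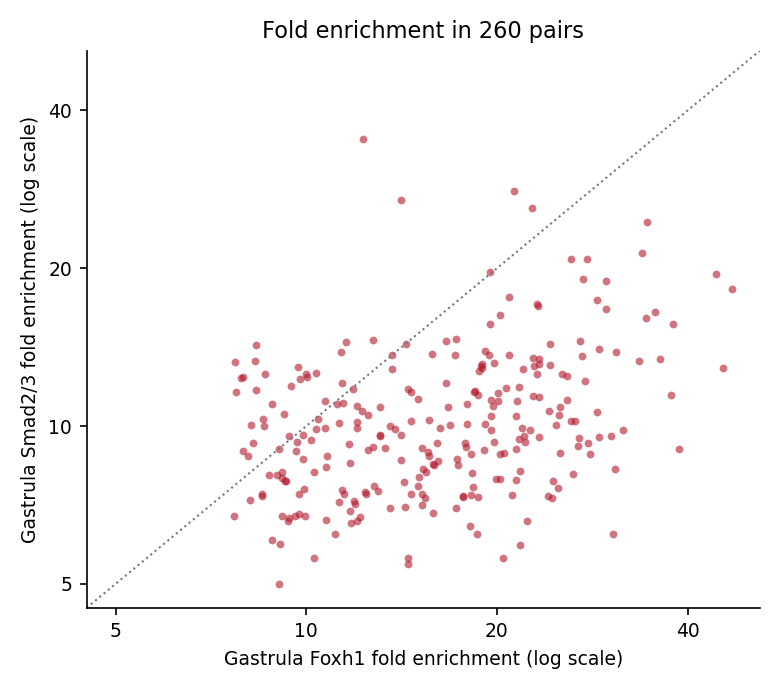
Fold enrichment of Smad2/3 (vertical, log scale) against that of Foxh1 (horizontal, log scale) in the 260 pairs, 1 point per pair, with the line of equal fold dotted. The cloud is wide, with rho of 0.34, and 35 points lie above the line.

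The 5 pairs that ranked best in both lists lay on 5 scaffolds. By the coordinates of the Smad2/3 peak, the first, on scaffold 53 from 75534 to 76192, ranked 6 of 480 for Smad2/3 (fold 24.5) and 11 of 1290 for Foxh1 (fold 34.5), with summits 10 bases apart. The next, on scaffold 1 from 55061675 to 55062301, ranked 7 (fold 21.4) and 13 (fold 33.9), also with summits 10 bases apart. The others were scaffold 3, 5673183 to 5673582, scaffold 7, 1854719 to 1855005, and scaffold 2, 31629094 to 31629656, with summits 40, 20 and 3 bases apart. All 5 also had Foxh1 at stages 8 and 9 and Foxa, and 4 of them had Tle. These lists were present at 88.5, 95.4, 95.4 and 71.8% of Foxh1 peaks with Smad2/3 in the highest quintile by Foxh1 fold.

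Other pairs were high in 1 list and low in the other. The pair with the largest excess of Smad2/3 rank, on scaffold 7 from 20048875 to 20049234, ranked 69 for Smad2/3 (fold 13.3) and 1278 for Foxh1 (fold 7.73). The one with the largest excess of Foxh1 rank, on scaffold 7 from 43615546 to 43615952, ranked 465 for Smad2/3 (fold 6.22) and 20 for Foxh1 (fold 30.5). Of the 5 pairs most shifted to Smad2/3, 1 had stage 8 Foxh1, while all 5 had stage 9 Foxh1 and Foxa. All 5 lay in the lowest quintile of the Foxh1 list by fold. Stage 8 Foxh1, stage 9 Foxh1 and Foxa were present at 31.3, 87.5 and 93.75% of the 16 Foxh1 peaks with Smad2/3 there. Of the 5 most shifted to Foxh1, all had Foxh1 at both blastula stages and Foxa. These lay in the highest quintile, where the same shares were 88.5, 95.4 and 95.4%.

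Smad2/3 was present at more than 50% of Foxh1 peaks in the highest class by Foxh1 fold and in no other class. In 10 classes of equal size by Foxh1 fold, the share with Smad2/3 was 63.6% (55.0 to 71.4%) in the highest class, 38.0% (30.1 to 46.6%) in the second, 26.4% (19.5 to 34.6%) in the third and 18.6% (12.8 to 26.2%) in the fourth. It was 5.43% (2.65 to 10.8%) in the lowest class. The share over the whole list was 20.2%, so the first 3 classes lay above it. The lower 645 Foxh1 peaks held 54 pairs (8.37%).

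Counted from the top, 8 of the 10 strongest Foxh1 peaks had Smad2/3, 38 of the first 50 (76.0%), 68 of the first 100 (68.0%) and 114 of the first 200 (57.0%). The cumulative share was last at 50% at rank 264, where 132 peaks had Smad2/3 and the Foxh1 fold was 16.0. In a moving window of 100 ranks, the share was last at 50% in ranks 77 to 176, which ended at a fold of 18.7. The upper 50% of all pairs was reached at rank 254. So the 20.5% strongest Foxh1 peaks held about as many pairs as the rest of the list. These ranks depend on where the Smad2/3 list ends.

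Ranked by fold, the view from Smad2/3 was flatter and did not run one way. In 10 classes of 48 Smad2/3 peaks by fold, Foxh1 was present at 68.8% (54.7 to 80.1%) of the highest and 72.9% (59.0 to 83.4%) of the second. It was lowest in the seventh class, at 35.4% (23.4 to 49.6%), and stood at 54.2% (40.3 to 67.4%) in both classes of lowest fold. The share over the whole list was 54.2%. The intervals of neighbouring classes overlap. Ranked by −log10 p in place of fold, the highest class had 77.1% and the lowest 41.7%, a wider fall than by fold. Of the 10 strongest Smad2/3 peaks 9 had Foxh1, and of the first 100, 70.

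**Figure D3:**
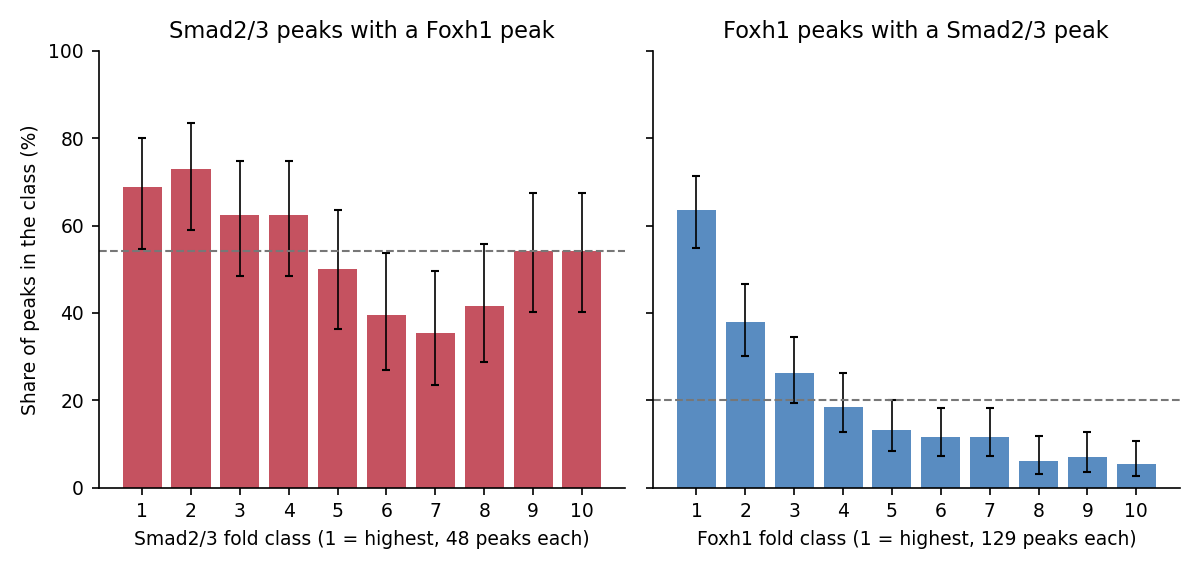
Share of peaks (%) with a peak of the other factor in 10 classes by fold, class 1 highest, for Smad2/3 peaks on the left and Foxh1 peaks on the right; lines on the bars are Wilson 95% intervals and the dashed line is the share over the whole list. The Foxh1 panel runs from 63.6% to 5.43%, while the Smad2/3 panel has its lowest value, 35.4%, in class 7.

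The strongest Smad2/3 peaks differed in their Foxh1 partner and in the other lists present at them. The highest, on scaffold 7 from 123170862 to 123171453, had a fold of 35.4 and a Foxh1 partner of fold 12.3, rank 473, with summits 6 bases apart. The second, on scaffold 2 from 46667846 to 46668147, had a fold of 28.1 and a Foxh1 partner of fold 21.3, rank 112. The fourth, on scaffold 8 from 82252401 to 82252744, had a fold of 27.04 and a Foxh1 partner of fold 14.1, rank 354. None of these 3 had stage 8 Foxh1 or Tle, and the second had no stage 9 Foxh1 either. Over all 260 Smad2/3 peaks with gastrula Foxh1, stage 8 Foxh1, Tle and stage 9 Foxh1 were present at 75.4, 64.6 and 94.6%.

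The third, on scaffold 2 from 141561277 to 141561519, had a fold of 27.9 and no gastrula Foxh1 partner, with the nearest such summit 836 kb away. It overlapped a stage 8 Foxh1 peak, but no stage 9 Foxh1 or Tle peak. Those at ranks 5 to 10, with folds of 19.6 to 26.1, had partners at Foxh1 ranks 11 to 153 and peaks of all 4 other lists. Peaks of all 4 other lists were present at 59.6% of the 260 Smad2/3 peaks with gastrula Foxh1. The next without Foxh1 had ranks 15, 21, 22 and 24 and folds of 18.1, 16.7, 16.6 and 16.4. They were scaffold 365, 86776 to 87187, scaffold 8c, 3644481 to 3644715, scaffold 7, 103425139 to 103425561, and scaffold 9, 4657593 to 4657988. All 5 of the strongest Smad2/3 peaks without gastrula Foxh1 had a Foxa peak, and 2 of them had stage 9 Foxh1. Stage 8 Foxh1 was present at 2 of them, on scaffolds 2 and 365. Over all 220 such peaks the shares of Foxa, stage 9 Foxh1 and stage 8 Foxh1 were 97.3, 49.1 and 12.3%.

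The 8 strongest Foxh1 peaks all had Smad2/3, but at ranks from 11 to 257 of the Smad2/3 list. The first, on scaffold 7 from 1854610 to 1854988, had a Foxh1 fold of 47.0 with a Smad2/3 fold of 18.3. The fourth, on scaffold 3 from 52997711 to 52998185, had a Foxh1 fold of 38.8 with a Smad2/3 fold of 9.05. A strong Foxh1 peak thus could have a Smad2/3 peak of ordinary height.

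The strongest Foxh1 peaks without Smad2/3 had ranks 9, 10, 16, 19 and 22 and folds of 35.5, 35.3, 31.0, 30.7 and 30.1. They were scaffold 27, 430357 to 430643, scaffold 3, 93328190 to 93328481, scaffold 8, 4725767 to 4726211, scaffold 8 again, 74698808 to 74699163, and scaffold 6, 18325324 to 18325708. All 5 had Foxh1 at stages 8 and 9, Tle and Foxa. These lists were present at 93.7, 100, 76.4 and 96.1% of Foxh1 peaks without Smad2/3 in the highest quintile by fold. The nearest Smad2/3 summit was 394 kb or more away for 4 of them, and scaffold 27 held none.

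Peaks in pairs had a larger median width than peaks outside them. Smad2/3 peaks with Foxh1 had a median width of 337.5 bases (quartiles 265.5 and 422.5) and those without 290.5 (235 and 355.25). Foxh1 peaks with Smad2/3 had a median of 332 bases (266.75 and 427.5) and those without 233.5 (184 and 307.75). Folds differed in the same direction, with medians of 9.87 and 8.93 for Smad2/3 with and without Foxh1 and of 16.2 and 9.99 for Foxh1 with and without Smad2/3. Within quintiles of the list by fold, Foxh1 peaks with Smad2/3 remained the wider in each, with medians of 357, 320, 303.5, 296 and 297 bases from the highest to the lowest quintile, against 292, 260.5, 229.5, 207 and 213 bases.

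For Smad2/3 the medians by quintile were 399, 345, 298, 306 and 287.5 bases with Foxh1, against 333, 282.5, 293, 293 and 275.5 bases without. The gap was thus widest in the 2 highest quintiles. Of the widest tertile of Foxh1 peaks, 37.0% had Smad2/3, against 7.21% of the narrowest. With summits within 100 bases in place of overlap the Foxh1 medians were 331 bases with Smad2/3 and 235 without. Inside a pair neither factor was steadily the wider. Smad2/3 was wider in 138 pairs and Foxh1 in 122, with rho of 0.65 between both widths.

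Most peaks outside pairs had no summit of the other factor within 20 kb. The share to be expected from the number of peaks alone was not computed, so these values do not tell whether such nearness was rare. Of the 220 Smad2/3 peaks without Foxh1, 4 had a Foxh1 summit within 1 kb, 32 within 5 kb and 47 (21.4%) within 20 kb. The median distance was 237 kb over the 203 on a scaffold with a Foxh1 peak. Of the 1030 Foxh1 peaks without Smad2/3, 11 had a Smad2/3 summit within 1 kb, 59 within 5 kb and 114 (11.1%) within 20 kb. Their median was 896 kb over 967 peaks, in a Smad2/3 list that is the shorter and therefore sparser.

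Clusters were formed by linking summits no more than 20 kb apart. Linked within their own list, 133 Smad2/3 peaks (27.7%) fell into 49 clusters of 2 to 4 peaks, and 350 Foxh1 peaks (27.1%) into 132 clusters of 2 to 11. The cluster of 11 lay on scaffold 480. Clustered Smad2/3 peaks had Foxh1 in 72.2% (64.0 to 79.1%), against 47.3% (42.1 to 52.5%) of lone ones. Clustered Foxh1 peaks had Smad2/3 in 34.6% (29.8 to 39.7%), against 14.8% (12.7 to 17.2%) of lone ones. By number of linked Foxh1 peaks the share was 14.8, 27.9, 26.2, 40.6 and 61.3% for 1, 2, 3, 4 and 5 or more.

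Clustered Foxh1 peaks were also stronger, with a median fold of 11.9 against 10.2 in lone ones. Within quintiles of the Foxh1 list by fold, clustered peaks had Smad2/3 more often than lone peaks in each. From the highest to the lowest the shares were 65.3, 35.5, 24.6, 14.3 and 8.93% of clustered peaks, against 41.4, 17.0, 8.63, 7.43 and 5.45% of lone ones. The intervals overlap in the 2 lowest quintiles. The quintiles did not make both groups alike. In the highest, clustered Foxh1 peaks had a median fold of 21.9 against 19.7, though in the 2 lowest it was slightly lower than in lone ones. Clustered Foxh1 peaks were also wider in each quintile, with medians of 368 against 306 bases in the highest and 264 against 205 in the lowest. Clustered Smad2/3 peaks had Foxh1 more often than lone ones in each quintile too, with 80.4, 87.1, 58.8, 54.5 and 58.8% against 62.0, 50.8, 41.8, 33.8 and 53.2%, and there the intervals overlap in all but the second.

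**Figure D4:**
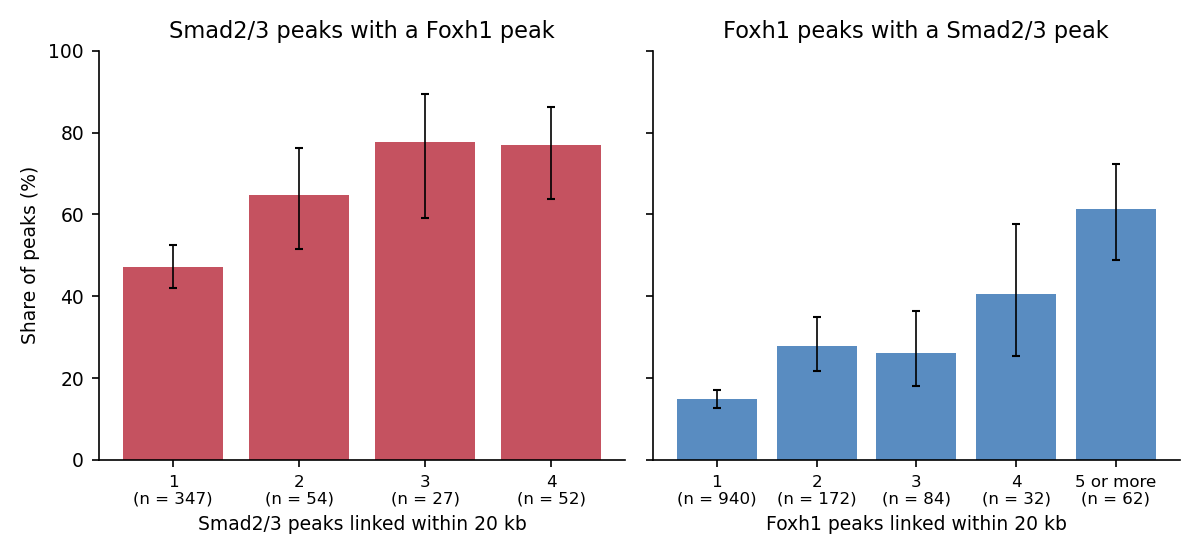
Share of peaks (%) with a peak of the other factor by the number of peaks of their own list linked within 20 kb, for Smad2/3 on the left and Foxh1 on the right, with Wilson 95% intervals. Lone peaks have the lowest share in both panels, 47.3% and 14.8%, and the 62 Foxh1 peaks in clusters of 5 or more have 61.3%.

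With both lists linked together there were 1236 groups, lone peaks and lone pairs included. Of these, 228 held both factors, 166 Smad2/3 alone and 842 Foxh1 alone. A single pair with nothing else within 20 kb made up 131 groups. The 33 groups with 2 or more pairs held 88 of the 260 pairs (33.8%). Each of the 10 groups with at least 5 Foxh1 peaks held 3 or more pairs, while groups of Foxh1 alone had at most 4 peaks. Larger groups have more peaks that can be in a pair, and 20.2% of all Foxh1 peaks were in pairs. Among the 10 was the group on scaffold 480, with 3 pairs and 11 Foxh1 peaks. Of the 220 Smad2/3 peaks without Foxh1, 23 lay in a group with a pair, 24 in a group with Foxh1 but no pair and 173 in a group without Foxh1.

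The largest group was the one on scaffold 480, which stood apart. From summit 8797 to 41583 it held 3 Smad2/3 and 11 Foxh1 peaks with 3 pairs. These pairs had Smad2/3 folds of 9.93, 13.7 and 9.93 and Foxh1 folds of 21.9, 20.9 and 16.3. Without scaffold 480, a choice made after seeing the data, 53.9% of Smad2/3 peaks had Foxh1 and 20.1% of Foxh1 peaks had Smad2/3. Of Smad2/3 peaks 27.3% and of Foxh1 peaks 26.5% were then in clusters within their own list. Smad2/3 was then present at 34.8% of clustered Foxh1 peaks and at 63.0% of the highest Foxh1 class. The share in clusters with 5 or more Foxh1 peaks was then 68.6% (55.0 to 79.7%, 35 of 51 peaks). In all, 11 Smad2/3 and 34 Foxh1 peaks overlapped no peak of the 4 other lists, and 6 of each were pairs. Over the whole lists, 54.2% of Smad2/3 and 20.2% of Foxh1 peaks were in pairs. Peaks without any other list made up 2.31% of Smad2/3 peaks with gastrula Foxh1 and 2.27% of those without.

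In the 4 other groups named, every peak had stage 9 Foxh1 and Foxa. Over the whole lists these were present at 94.0 and 88.9% of Foxh1 peaks and at 73.8 and 96.9% of Smad2/3 peaks. On scaffold 1, from summit 202940826 to 202978661, 6 Smad2/3 and 6 Foxh1 peaks formed 5 pairs over 37.8 kb. The pair at its start had a Smad2/3 fold of 26.1 and a Foxh1 fold of 22.7, and the other 4 had Smad2/3 folds of 8.51 to 12.8 and Foxh1 folds of 11.7 to 22.0. Its 1 Smad2/3 peak outside a pair, from 202942669 to 202942941, had a fold of 6.69.

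Of 5 groups with 4 Smad2/3 and 6 Foxh1 peaks, 3 are named here. On scaffold 1, from summit 55046799 to 55061834, the 4 pairs had Smad2/3 folds of 7.69, 12.8, 9.57 and 21.4 and Foxh1 folds of 12.8, 13.6, 13.1 and 33.9. On scaffold 3, from summit 5663485 to 5688540, the 4 pairs had Smad2/3 folds of 13.4, 19.5, 7.43 and 12.2 and Foxh1 folds of 36.1, 44.4, 11.5 and 27.5. On scaffold 5, from summit 98413154 to 98446478, there were 3 pairs, with Smad2/3 folds of 9.56, 14.4 and 8.41 and Foxh1 folds of 22.1, 24.2 and 15.9.

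The other lists differed between Smad2/3 peaks with and without gastrula Foxh1 for Foxh1 and Tle. Foxa had close to equal shares. The pairing did not use these lists, but the Foxh1 and Tle lists are not independent of it. Over all gastrula Foxh1 peaks, stage 9 Foxh1, stage 8 Foxh1 and Tle were present at 94.0, 74.1 and 56.4%. Stage 9 Foxh1 was present at 246 Smad2/3 peaks with gastrula Foxh1 (94.6%, 91.2 to 96.8%) and at 108 without (49.1%, 42.6 to 55.7%), against 73.8% of all Smad2/3 peaks. Stage 8 Foxh1 was present at 196 (75.4%, 69.8 to 80.2%) and 27 (12.3%, 8.57 to 17.3%), against 46.5% of all. Stage 8 Tle was present at 168 (64.6%, 58.6 to 70.2%) and 27 (12.3%, 8.57 to 17.3%), against 40.6% of all. Foxa was present at 251 (96.5%, 93.6 to 98.2%) and 214 (97.3%, 94.2 to 98.7%), against 96.9% of all.

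Foxa was the only other list with a peak at 7 Smad2/3 peaks with Foxh1 (2.69%) and at 103 without (46.8%). Peaks of all 4 other lists were present at 155 (59.6%) and 18 (8.18%). The stage 8 difference was present in both the upper and the lower 50% of the Smad2/3 list by fold. Stage 8 Foxh1 was present at 71.7% of the stronger Smad2/3 peaks with gastrula Foxh1 and 10.2% of those without, and at 80.6 and 13.6% of the weaker ones.

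Where stage 8 Foxh1, stage 9 Foxh1 or Foxa had a peak, its height differed too. Stage 8 Foxh1 peaks had a median fold of 26.0 at Smad2/3 peaks with gastrula Foxh1 (interval of the median 23.3 to 27.5). At the 27 without it the median was 15.7 (13.1 to 22.9), in a list whose median is 16.6. For stage 8 Tle the median scores were 17.5 at Smad2/3 peaks with gastrula Foxh1 and 9.68 at those without. Their intervals overlap (14.5 to 23.7 and 7.80 to 23.4). Stage 9 Foxh1 peaks had a median fold of 30.2 at Smad2/3 peaks with gastrula Foxh1 and 16.7 at those without, in a list whose median is 15.7. The Foxa score had a median of 79.9 at Smad2/3 peaks with gastrula Foxh1 and 46.9 at those without, in a list whose median is 10.8. These medians stand at the 90.4 and 55.6 percentiles of the stage 9 list and the 97.0 and 91.2 percentiles of the Foxa list. Smad2/3 peaks without gastrula Foxh1 thus had ordinary stage 9 Foxh1 peaks where they had any, and Foxa peaks far above the median of the Foxa list. The latter was not particular to them, as Foxh1 peaks without Smad2/3 had a median Foxa score of 38.6.

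**Figure D5:**
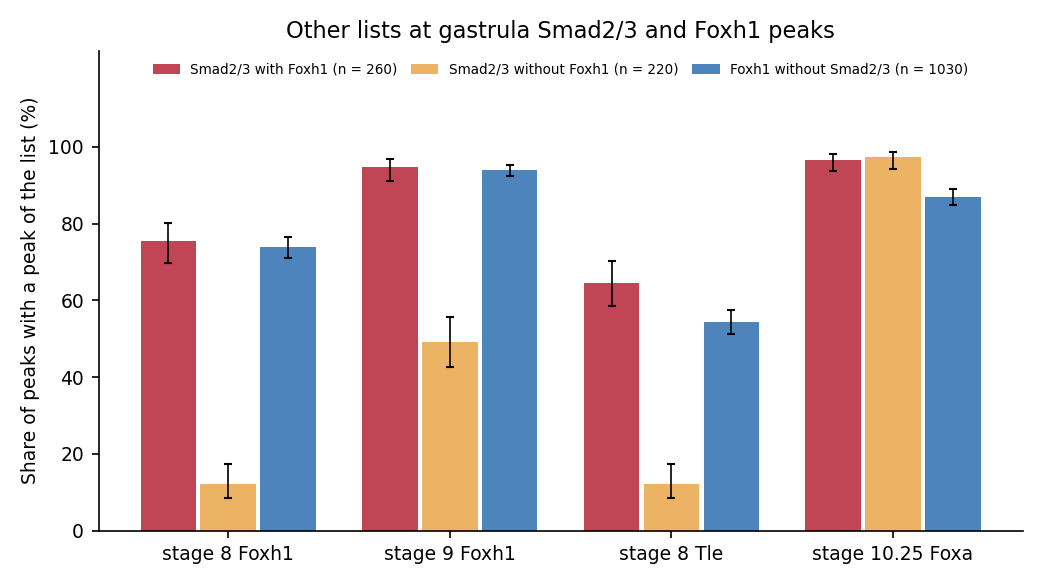
Share of peaks (%) with a peak of each of the 4 other lists, for Smad2/3 peaks with gastrula Foxh1, Smad2/3 peaks without it and Foxh1 peaks without Smad2/3, with Wilson 95% intervals. The middle bar of each set stands low for Foxh1 at both stages and for Tle, at 12.3 to 49.1%, and level with the left bar for Foxa, at 97.3%.

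On the Foxh1 side the other Foxh1 stages had nearly the same shares at peaks with and without Smad2/3. Stage 9 Foxh1 was present at 246 Foxh1 peaks with Smad2/3 (94.6%) and at 967 without (93.9%), against 94.0% of all gastrula Foxh1 peaks. Stage 8 Foxh1 was present at 75.4% and 73.8%, against 74.1% of all, and Tle at 64.2% and 54.4%, against 56.4% of all. Foxa was present at 96.5% (93.6 to 98.2%) and 87.0% (84.8 to 88.9%), against 88.9% of all.

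Because Foxh1 peaks with Smad2/3 were the stronger ones, these shares were also taken within quintiles by Foxh1 fold. Stage 8 Foxh1 was then less frequent at peaks with Smad2/3 in each quintile, with 88.5, 70.7, 62.5, 60.9 and 31.3% from the highest to the lowest, against 93.7, 85.5, 74.8, 69.4 and 57.0% at peaks without. The intervals of both groups overlap in every quintile. Tle had no steady direction within quintiles, with 71.8, 62.1, 62.5, 47.8 and 37.5% at peaks with Smad2/3, against 76.4, 70.0, 50.4, 47.7 and 40.1% at peaks without. It was thus lower with Smad2/3 in 3 of the 5 quintiles, and these intervals overlap in every quintile too. Foxa was present at 95.4% with Smad2/3 and 96.1% without in the highest quintile. It was more frequent with Smad2/3 in each lower quintile, as in the lowest with 93.75 against 78.9%. Its intervals overlap in every quintile. Stage 9 Foxh1 had no steady direction, with 95.4 against 100% in the highest and 87.5 against 98.2% in the third. It was more frequent with Smad2/3 in the others, and its intervals were apart only in the third. The highest quintile held 131 peaks with Smad2/3, the third 32 and the lowest 16. Within the highest quintile, peaks with Smad2/3 were still the stronger, with a median Foxh1 fold of 22.0 against 19.0.

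The Foxa score was higher at Foxh1 peaks with Smad2/3 in each quintile. Its medians were 86.0, 77.4, 76.9, 73.6 and 65.6 from the highest to the lowest, against 52.4, 41.7, 39.8, 30.7 and 35.6 at Foxh1 peaks without Smad2/3. The quartiles overlap, as in the highest quintile with 60.1 and 112 against 34.0 and 79.6. The median stage 9 Foxh1 fold had no such steady direction, with 32.6, 27.04, 30.8, 21.5 and 24.9 at peaks with Smad2/3, against 33.6, 31.1, 28.1, 28.3 and 26.1 at peaks without. It was higher with Smad2/3 only in the middle quintile.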

How the data were processed

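ChIP-seq peak lists of whole Xenopus tropicalis embryos were used as deposited. The submitters' processing notes name MACS2 2.0.10, Bowtie 1.0.0, HOMER 4.7 and SAMtools without saying what each did. Per those notes and the labels, nothing is said of the build, controls or thresholds, which are taken as not given. The deposited Foxh1 and Smad2/3 lists hold the authors' fold enrichment ratio, the authors' −log10 p, a summit offset and a score. The deposited Tle and Foxa lists hold only a score of unstated scale. For those lists the peak middle served as the centre.

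From these lists, overlaps of at least 1 base, distances between summits, ranks by fold with ties in order of scaffold and start, and single-linkage clusters of summits within 20 kb were computed with numpy 2.4.6, pandas 2.3.3 and scipy 1.17.1 under Python 3.11.15, and drawn with matplotlib 3.10.9. The steps were tested on simulated data. Alternatives were 50% overlap, summits or centres within 100 bases, peak middles, −log10 p in place of fold, links of 10 and 50 kb, the upper 50% of lists, the 10 longest scaffolds and, added after seeing the data, all but scaffold 480. The 7 samples without a list were not analysed here. Coordinates are those of the lists, counted from 1.

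The regions named are the 10 highest peaks of each list, the 5 highest peaks outside pairs of each list, the 5 pairs best in both lists, the 5 most discordant pairs in each direction and the 5 largest clusters. The pair with the furthest summits was chosen after its value was seen. The members, lists and rules were chosen with earlier results of these data known. No gene names or sequences are given, because the reference at hand is of a build not shown to be that of the lists.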

Additional observations from a re-analysis of the deposited data

How the results depend on the processing

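Of 79 alternative values for 31 results, 53 stayed within the 95% interval of the reported value, taken as Wilson for shares, by order statistics for medians and by Fisher's z for rho, or within 1.5 times for the rank of 264. The shares of paired peaks, the summit distance, the rank relation, the widths and the nearest distances were among these under each alternative tried. Without scaffold 480 all 6 values tried also stayed, and that alternative was added after seeing the data. With links of 10 and 50 kb, 23.1 and 33.8% of Smad2/3 and 21.0 and 34.7% of Foxh1 peaks were in clusters. Ranked by −log10 p, the lowest Foxh1 class had Smad2/3 in 2.33%. With centres within 100 bases, stage 8 Foxh1, stage 9 Foxh1, Tle and Foxa were present at 69.2, 86.2, 50.4 and 79.2% of Smad2/3 peaks with Foxh1, at 8.18, 40, 7.27 and 82.7% of those without and at 69.6, 88.9, 41.8 and 70.6% of Foxh1 peaks without Smad2/3. With the upper 50% of each other list by score, stage 8 Foxh1, stage 9 Foxh1 and Tle were present at 63.8, 90.8 and 52.7% of Smad2/3 peaks with Foxh1. Stage 8 and stage 9 Foxh1 were then present at 6.36 and 32.7% of those without, and all 4 lists at 59.3, 90.2, 45.4 and 76.7% of Foxh1 peaks without Smad2/3. Both alternatives are stricter by construction. The planned motif search was not run, because no genome of the lists' build was used here. Depth is unknown, and no replicate could be left out.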

Other observations

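The lowest folds of the Smad2/3 list belonged to 3 peaks without Foxh1. They lay on scaffold 169 from 134691 to 135006 (fold 2.62), on scaffold 2 from 109851591 to 109852117 (fold 3.09) and on scaffold 6 from 82848683 to 82849747 (fold 3.09, 1065 bases wide). Their −log10 p values of 28.7, 45.7 and 45.7 lay well above the lowest of the list, 20.9. All 3 had a Foxa peak and none had stage 9 Foxh1, against 97.3 and 49.1% of all Smad2/3 peaks without Foxh1. They were chosen after their values were seen.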
